A study of Mus musculus with 6 samples.

Results

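Expression of 36 genes of glucose use was examined in the degenerating mouse retina: the glucose carriers, the enzymes of glycolysis and of the pentose phosphate pathway, lactate dehydrogenase and the lactate carriers, pyruvate dehydrogenase and its kinases, and the genes Nxnl1 and Bsg. They were listed by function, each was read from the probe with the highest mean among its probes on the array, and samples of 2 and 8 months of age were compared. Of the 36 genes, 32 had a probe named for them alone, out of 19057 such genes on the array. Hk2, Gpi1, Eno1 and G6pdx were not analysed here. A probe counted as bright enough to test when, on 3 or more arrays, it lay above the median of that array. By that filter 27 of the 36 genes were tested, among 12046 tested genes in all, and 5 were too dim.

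All samples were central retina of rd1/rd1 mice. These mice carry a mutation of Pde6b, the rod phosphodiesterase beta subunit, so that rods and later cones are lost. Both ages share that genotype, and neither was treated. There were 3 samples of 2 months and 3 of 8 months, each a pool of 3 to 6 punches, 1.5 mm across, taken from the centre of the retina. The sources used here do not say how many animals a pool held, so p-values measure the spread between pools.

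Photoreceptors take up glucose at a high rate and turn much of it into lactate even when oxygen is present, a habit shared with tumour cells. Glucose reaches them from the blood through the pigment epithelium, and lactate leaves on monocarboxylate carriers that need the membrane protein basigin, the product of Bsg. Nxnl1 codes for a thioredoxin-like factor made by rods. The short form of this factor binds basigin on cones and promotes their glucose uptake, and the loss of rods removes it.

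Values were on the deposited log2 scale, from 6.98 to 14.5 over 45281 probes, and each array had its median at 7.19, a level close to background where differences are compressed. A difference on this scale is 8 months minus 2 months, and the probes of different genes cannot be ranked against each other by level. The bipolar genes Grm6 and Gng13 lay at 12.48 and 13.56 at 2 months and the amacrine gene Calb2 at 13.34. They were named for the highest means of their lists, so their levels do not test the labelled tissue. Other genes of these lists were dimmer at 2 months, such as the bipolar gene Vsx1 at 7.88 and the amacrine gene Pax6 at 7.49. The signals of neighbouring tissue were uneven. The 4 tested red blood cell genes had a median level of 10.58 to 11.96 in the 2 month samples and of 9.38 to 9.53 at 8 months, and 2 month replicate 2 was the highest sample. The same sample was highest for the 10 pigment epithelium genes, at 9.46 against 8.55 and 8.57 at 2 months and 7.78 to 8.61 at 8 months, and for the 7 muscle genes, at 8.89 against 7.26 to 8.06 in all others.

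None of the 27 tested genes of glucose use passed the test over all genes (limma, Benjamini-Hochberg adjusted p below 0.05), where 0.224% of all tested genes did, 27 in number, 19 higher and 8 lower. The smallest adjusted p of the 27 genes was 0.294 (limma). At an unadjusted p below 0.05 there were 5 of them, or 18.5%, beside 10.4% of all tested genes. Of the 5, 4 were higher, as were 5.1% of all tested genes, and 1 was lower, as were 5.34%. That count changed with the samples used: it was 2 without 2 month replicate 2, 3 without 2 month replicate 3, 2 without 8 month replicate 1 and 1 without 8 month replicate 3. Leaving out 2 month replicate 1 kept it at 5, and leaving out 8 month replicate 2 raised it to 6. A fit with 1 sample fewer has less power for every gene. The share of all tested genes is not given for these fits, so the counts do not single out a sample. The measured differences ran from −0.21 (0.867-fold) for Slc2a1 to 0.29 (1.22-fold) for Hk1. Their median was 0.041, against 0.000482 over all tested genes, with 19 above and 8 below 0, where 50.2% of all tested genes lay above 0. In the same samples 9 of 10 tested genes of amacrine cells, inhibitory neurons of the inner retina, had positive differences, with a median of 0.129, and the median deviation of that list was below 0 in every 2 month sample and above 0 in every 8 month sample. Of 8 tested genes of bipolar cells, which relay photoreceptor signals, 7 had negative differences, with a median of −0.083. No gene of either list passed over all genes by limma, and the part of these cells in the values of glucose use was not tested.

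In all 27 genes the 95% interval of the difference lay within a 1.5-fold change in either direction, as it did for 97.2% of all tested genes. In 18 of the 27 (66.7%) it lay within 1.25-fold, a smaller share than the 79.6% of all tested genes. The SE of the difference had a median of 0.0805 over the 27 genes and of 0.0654 over all tested genes. The 27 genes had a median level of 11 against 8.2 over all tested genes, of which more lie in the compressed range. The interval held 0 for 22 of the 27. For Ldhb, Pdk4 and Pfkfb3, whose probes lay near the array median, compression could hide a larger change, so their intervals bound only the signal of the probe. For the 2 ages not to overlap, the 3 values of 1 age had to lie above all 3 of the other, which held for 3 of the 27 genes (11.1%) and for 15% of all tested genes. Aldoa and Pgk1 were higher without overlap, as were 7.45% of all tested genes, and Pfkfb3 was lower, as were 7.59%. Pfkfb3 passed the filter through its 2 month samples alone, so its lack of overlap was set by the filter and is no result.

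**Figure D1:**
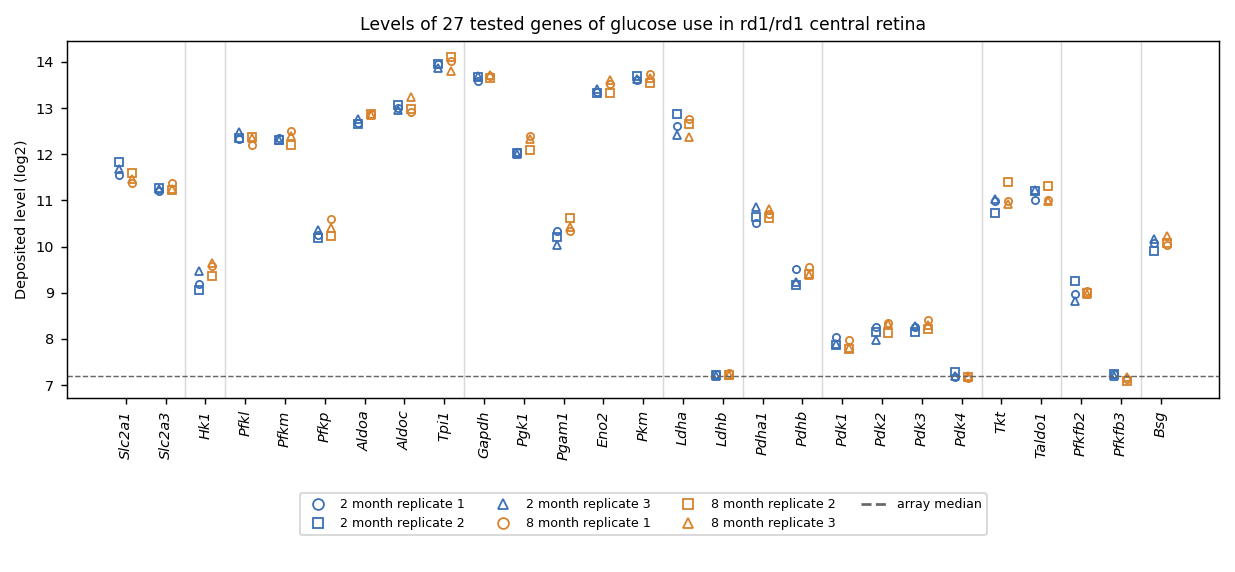
Deposited log2 level (vertical axis) of each of the 27 tested genes in every sample, ordered by step, with the 2 month samples in blue and the 8 month samples in orange, 1 symbol per replicate. The dashed line is the array median of 7.19. The ages overlapped for 24 of the 27 genes, and levels of different genes come from different probes and are not comparable.

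Cone genes had larger differences in the same samples. Of 10 tested cone genes, 2 passed over all genes, named here after their values were seen. The arrestin of cones, Arr3, had a difference of −1.55 (SE 0.127, limma adjusted p = 0.00936). For Gnat2, which codes for the alpha subunit of cone transducin, it was −0.86 (SE 0.0818, limma adjusted p = 0.0169). Neither passed without 2 month replicate 1, where the differences were −1.56 for Arr3 and −0.84 for Gnat2 and the limma adjusted p was 0.0828 and 0.123. Gnat2 missed the threshold in further cases: its limma adjusted p was 0.055 when 2 month replicate 2 was left out, 0.114 when 8 month replicate 1 was, and 0.0594 when 8 month replicate 3 was. The median difference of the list was −1.21. One of its genes, Cnga3, passed the filter through its 2 month samples alone, so its negative sign was set by the filter. The genes of that list were picked with results of these data known, so its direction is not independent evidence. In pooled tissue, fewer cells of a type and less RNA per cell cannot be told apart. The 8 Müller glia genes tested, of the cells that enclose the retinal neurons, had a median difference of 0.033, and none passed over all genes, while 1, Glul, the glutamine synthetase, was lower at an unadjusted p below 0.05.

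**Figure D2:**
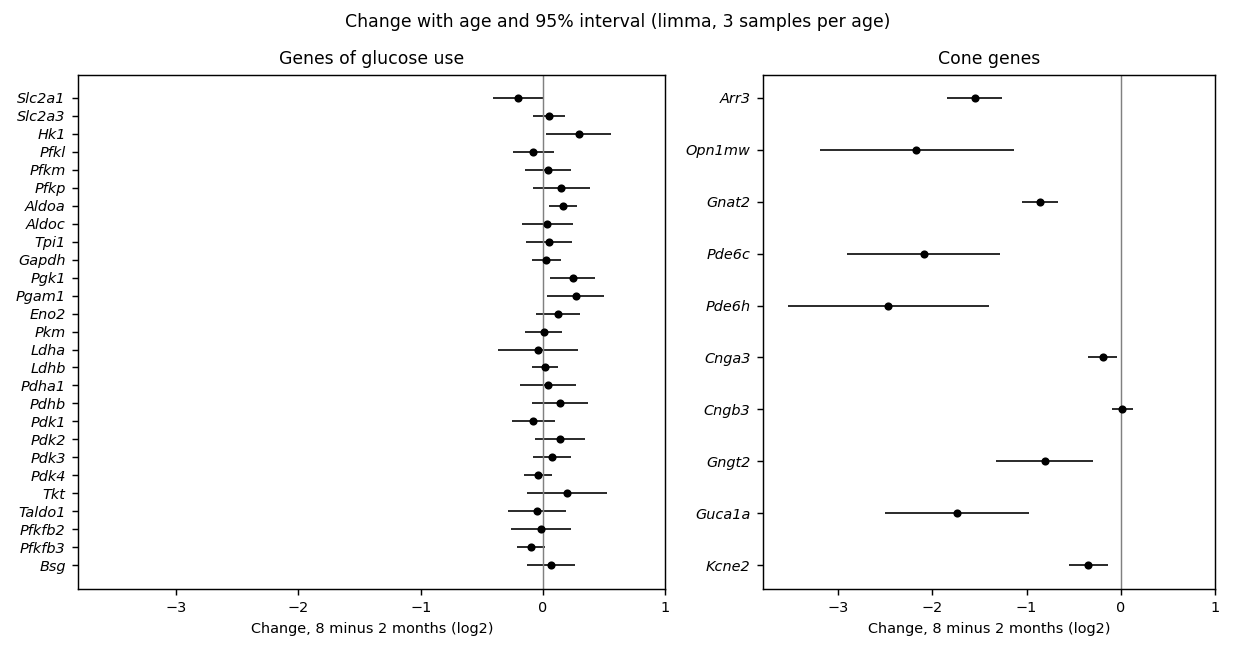
Difference between the ages (8 minus 2 months, log2, horizontal axis) with its 95% interval for the 27 genes of glucose use (left) and 10 cone genes (right) on the same scale. The points of glucose use lie between −0.21 and 0.29, those of the cone genes between −2.47 and 0.017.

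The first step is entry of glucose. Slc2a1 codes for the carrier that brings glucose across the blood vessel wall, the pigment epithelium and into retinal cells. It was at 11.55, 11.83 and 11.68 in the 2 month samples and at 11.38, 11.59 and 11.47 in the 8 month samples. The ages overlapped, since 8 month replicate 2 lay above 2 month replicate 1. The difference was −0.21 (SE 0.0862, 95% interval −0.41 to −0.0044, limma adjusted p = 0.469), and it ran from −0.28 to −0.13 when any 1 sample was left out. The value of −0.13 came without 2 month replicate 2, the sample highest for blood, pigment epithelium and muscle genes. Of those lists, 0 of 4 tested red blood cell genes, 1 of 10 pigment epithelium genes and 0 of 7 muscle genes had a positive difference. Tyr, of the pigment epithelium list, passed the filter through its 2 month samples alone, so its negative sign was set by the filter. Of 10 tested endothelial genes 4 had a positive difference, the median was −0.0069, and the median deviation of the list ran from −0.114 to 0.105 at 2 months and from −0.064 to 0.018 at 8 months, with overlap. The part of these tissues in the Slc2a1 value was not tested. Slc2a3, the carrier typical of neurons, was at 11.20 to 11.27 at 2 months and 11.23 to 11.38 at 8 months, a difference of 0.047 (SE 0.0562).

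Hk1, the hexokinase that traps glucose in most neurons, had a difference of 0.29 (SE 0.115, 95% interval 0.021 to 0.56). Its levels were 9.18, 9.07 and 9.47 at 2 months against 9.58, 9.37 and 9.64 at 8 months. The highest 2 month sample, replicate 3, lay above 8 month replicate 2, so the ages overlapped, and the adjusted p was 0.436 (limma). A dimmer probe of the same gene went from 7.60 to 7.67 at 2 months to 7.73 to 7.89 at 8 months without overlap, with a difference of 0.17.

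In the steps from glucose phosphate to triose phosphate, 5 of 6 tested genes had a positive difference, though those of Pfkm, Aldoc and Tpi1 were negative when 1 sample was left out, at the lowest −0.030, −0.063 and −0.016. Aldoa, an aldolase, which splits the hexose into triose phosphates, was at 12.67, 12.66 and 12.76 at 2 months and at 12.87, 12.86 and 12.85 at 8 months. All 8 month samples lay above all 2 month samples. The difference was 0.16 (1.12-fold, SE 0.0489, limma adjusted p = 0.294), and it was 0.15 to 0.20 when any 1 sample was left out. Aldoc, the aldolase of brain and of Müller glia, had overlapping ages at 12.96 to 13.07 and 12.91 to 13.24.

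The 3 subunits of phosphofructokinase, the main control point of glycolysis, each had overlapping ages. Pfkl, the liver type subunit, had a difference of −0.080 (SE 0.0712), Pfkm, the muscle type, of 0.041 (SE 0.0805) and Pfkp, the platelet type, of 0.15 (SE 0.0985). The 3 probes of Pfkm gave 0.041, 0.074 and 0.019, and those of Pfkp 0.15, 0.21 and 0.095, whereas the second probe of Pfkl had the opposite sign, 0.045. Tpi1, triose phosphate isomerase, was at 13.88 to 13.96 and at 13.81 to 14.11.

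Below the triose phosphates, all 5 tested genes had positive differences, from 0.0037 for Pkm to 0.27 for Pgam1. The signs of Pkm and Gapdh depended on the settings: Pkm was negative in 5 of 18 alternatives, down to −0.045, and Gapdh in 1, at −0.0056. Pgk1 codes for phosphoglycerate kinase, the first step of glycolysis that returns ATP. It was at 12.05, 12.03 and 12.01 at 2 months and at 12.39, 12.10 and 12.32 at 8 months, so the ages did not overlap. The difference was 0.24 (1.18-fold, SE 0.0778, limma adjusted p = 0.329). The 2 month samples lay close together and 8 month replicate 2 was nearest to them. The other bright probe of Pgk1, at 7.41 to 7.75, gave 0.078 with overlap.

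Pgam1, phosphoglycerate mutase, was at 10.33, 10.20 and 10.04 at 2 months and at 10.33, 10.63 and 10.42 at 8 months. The highest 2 month sample and the lowest 8 month sample nearly coincided. The difference was 0.27 (1.2-fold, SE 0.0997, limma adjusted p = 0.413), and 0.19 at its second probe.

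The remaining genes of this stretch had overlapping ages. Gapdh, glyceraldehyde phosphate dehydrogenase, often used as a housekeeping gene, was at 13.59 to 13.70 at 2 months and 13.65 to 13.72 at 8 months. Eno2, the neuronal enolase, had a difference of 0.12 (SE 0.0775), with 8 month replicate 2 at 13.32, below every 2 month sample. Pkm, pyruvate kinase, was at 13.60 to 13.70 and 13.53 to 13.74, and its probe does not tell which splice form was measured.

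**Figure D3:**
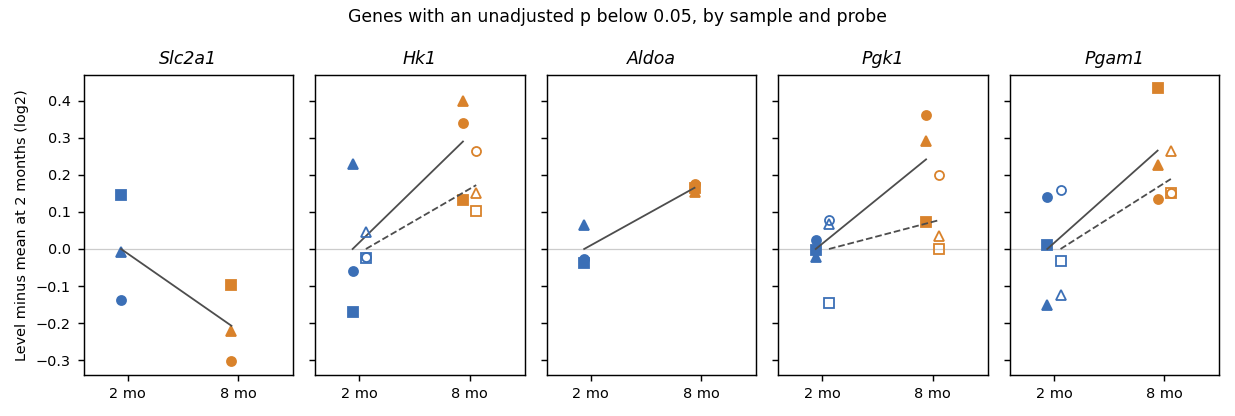
Level of each sample minus the probe's 2 month mean (log2, vertical axis) for the 5 genes with an unadjusted p below 0.05. Filled symbols and the solid line show the brightest probe, open symbols and the dashed line a second probe, and the symbol shape gives the replicate (circle 1, square 2, triangle 3). Aldoa and the brightest probe of Pgk1 separate the ages, while Slc2a1, the brightest probe of Hk1 and Pgam1 overlap.

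Many glycolytic promoters are known to bind the hypoxia-inducible factors, whose core motif is ACGTG. The 250 bases before each RefSeq start (build GRCm38.p6) were searched for ACGTG on both strands, an overlap of the strands at CACGTG counting once. At least 1 window held it in 15 of the 33 genes of the 36 that the promoter table lists, or 45.5%, beside 18.5% of all 27025 genes in that table. By window, it was in 19 of 50 (38.0%) and in 16.6% of all 32851 windows. The windows of 4 of the 5 genes with an unadjusted p below 0.05 are shown because they hold the motif, in capitals, read 5′ to 3′ on the gene's strand. They are Slc2a1 (chr4:119108495-119108744, plus strand), Aldoa (chr7:126799255-126799504, minus strand, the second of 3 starts), Pgk1 (chrX:106186850-106187099, plus strand) and Pgam1 (chr19:41911621-41911870, plus strand).
Slc2a1: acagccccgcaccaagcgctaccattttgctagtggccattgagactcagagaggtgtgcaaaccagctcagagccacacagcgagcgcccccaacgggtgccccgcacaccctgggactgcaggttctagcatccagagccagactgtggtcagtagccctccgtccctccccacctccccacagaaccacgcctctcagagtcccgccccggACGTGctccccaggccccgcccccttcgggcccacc
Aldoa: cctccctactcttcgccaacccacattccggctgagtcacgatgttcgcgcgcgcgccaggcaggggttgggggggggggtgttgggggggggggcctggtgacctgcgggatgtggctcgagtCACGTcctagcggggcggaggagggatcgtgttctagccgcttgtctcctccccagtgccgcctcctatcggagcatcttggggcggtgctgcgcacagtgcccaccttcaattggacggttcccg
Pgk1: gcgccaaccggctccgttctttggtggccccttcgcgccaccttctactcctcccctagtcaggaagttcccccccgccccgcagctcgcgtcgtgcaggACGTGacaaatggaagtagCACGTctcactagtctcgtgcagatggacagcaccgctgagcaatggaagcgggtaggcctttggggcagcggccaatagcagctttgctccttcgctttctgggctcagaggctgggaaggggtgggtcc
Pgam1: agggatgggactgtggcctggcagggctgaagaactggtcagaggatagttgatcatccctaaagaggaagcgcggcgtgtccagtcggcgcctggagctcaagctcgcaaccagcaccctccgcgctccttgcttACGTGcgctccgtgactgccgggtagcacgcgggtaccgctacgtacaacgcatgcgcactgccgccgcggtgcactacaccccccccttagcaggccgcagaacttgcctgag
The motif begins 36 bases before the start of Slc2a1, 126 before that of Aldoa, 150 and 131 before that of Pgk1 and 114 before that of Pgam1. Both windows of Hk1 lack these letters. Among tested genes in the table, the 12 with the motif had a median difference of 0.058 and the 13 without it one of 0.036. Of these 4 genes, Slc2a1 had a negative difference and Aldoa, Pgk1 and Pgam1 had positive ones. A match describes the sequence only.

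At the end of the pathway, Ldha, the lactate dehydrogenase subunit that favours lactate production, was at 12.60, 12.88 and 12.42 at 2 months and at 12.76, 12.65 and 12.36 at 8 months. The ages overlapped, and the difference was −0.041 (SE 0.139). The 95% interval, −0.37 to 0.29, is among the widest of the 27 genes. The probe of Ldhb, the subunit that favours lactate use, stayed at 7.20 to 7.27, near the array median.

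The lactate carriers could not be followed. The probes of Slc16a1, Slc16a3 and Slc16a7, which code for monocarboxylate carriers, were all below the filter, as was that of Pgd, an enzyme of the oxidative pentose phosphate branch. Their values lay between 7.05 and 7.26 together with those of Nxnl1. The brightest probe of Slc16a3 rose above the array median on 1 array of each age and that of Nxnl1 on 2 arrays of 2 months, fewer than the 3 that the filter asks for. A low signal of this kind does not say that the RNA was absent.

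The 3 probes of Nxnl1 were all too dim to test. The brightest was at 7.14, 7.21 and 7.20 at 2 months and at 7.14, 7.17 and 7.18 at 8 months. These values do not set the ages apart, and they sit at the array median, in a retina that had lost most rods by 2 months. Bsg, whose product receives the factor on cones and escorts the lactate carriers, was at 10.08, 9.90 and 10.16 at 2 months and at 10.03, 10.08 and 10.22 at 8 months. The difference was 0.066 (SE 0.0828, 95% interval −0.13 to 0.26), and its second probe gave 0.020. The values of the ages overlapped. In pooled tissue the Bsg values do not tell cones from other cells.

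Pyruvate dehydrogenase links glycolysis to the citrate cycle, and its kinases shut it. The subunit genes Pdha1 and Pdhb had differences of 0.041 (SE 0.0973) and 0.14 (SE 0.0969), and the other probes of Pdhb gave −0.0039 and −0.0011. Of the kinases, Pdk1 was at −0.080 (SE 0.0743), Pdk2 at 0.14 (SE 0.0879), Pdk3 at 0.075 (SE 0.0666) and Pdk4, which lay near the array median, at −0.045 (SE 0.0484). In every case the ages overlapped.

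In the pentose phosphate pathway, which supplies NADPH and ribose, Tkt, transketolase, had 8 month replicate 2 at 11.40 and all other samples between 10.72 and 11.02. Its difference of 0.20 (SE 0.139) rested on that sample, being 0.047 without it. The other bright probes of Tkt gave 0.029 and −0.079. Taldo1, transaldolase, had a difference of −0.049 (SE 0.102), with the same 8 month sample highest at 11.32.

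The bifunctional enzymes that set the level of the phosphofructokinase activator gave 2 further genes. Pfkfb2 was at 8.81 to 9.25 at 2 months and at 8.97 to 9.03 at 8 months. Pfkfb3 was at 7.24, 7.24 and 7.21 at 2 months and at 7.14, 7.08 and 7.18 at 8 months, without overlap. It passed the filter through its 2 month samples alone, so it had to be lower at 8 months, and its difference of −0.097 (SE 0.0484, limma adjusted p = 0.576) lies in the compressed range.

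As a set, the genes varied more between samples of 1 age than the typical tested gene. Their within-age SD had a median of 0.0861 at 2 months and 0.105 at 8 months, against 0.0762 and 0.0697 over all tested genes. Their median level was also higher, at 11 against 8.2, and values near the array median are compressed. The part of level in this contrast was not tested. The median deviation of the 27 genes from their means lay between −0.027 and −0.016 in the 2 month samples, was 0.064 in 8 month replicate 1, −0.023 in replicate 2 and 0.017 in replicate 3. 8 month replicate 1 was the highest sample for 10 of the 27 genes and for 15.3% of all tested genes.

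**Figure D4:**
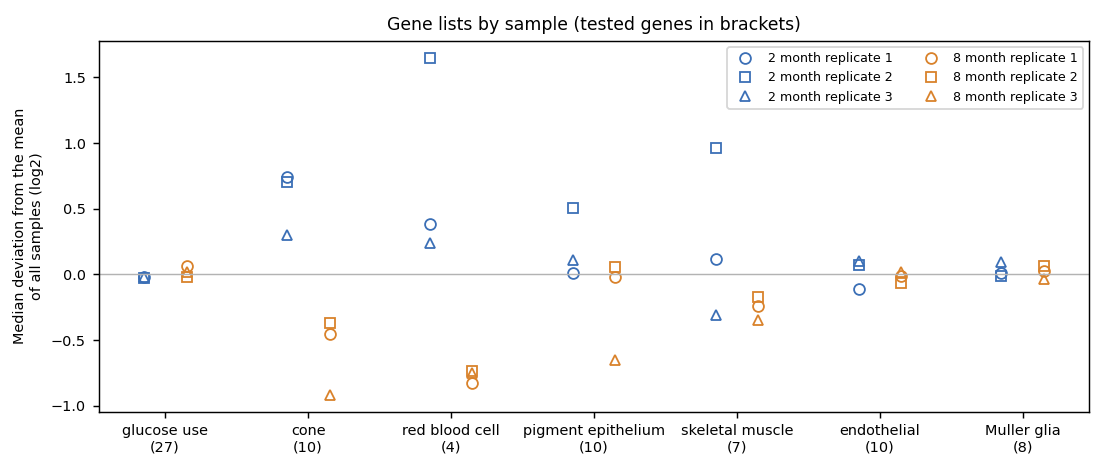
Median deviation of each gene list from its genes' means over all samples (log2, vertical axis), 1 symbol per sample, blue for 2 months and orange for 8 months. Glucose use stays between −0.027 and 0.064, while red blood cell genes reach 1.65 and skeletal muscle genes 0.96 in 2 month replicate 2.

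Around the core pathway, 96 of 132 genes in 7 further lists were tested. None passed over all genes by limma, and 5 were higher and 9 lower at an unadjusted p below 0.05 (14.6%, beside 10.4% of all tested genes). The lists had median differences from −0.023 to 0.022. Of 17 citrate cycle genes tested, 10 were positive, where 50.2% of all tested genes lay above 0. Cs, citrate synthase, the entry enzyme, was at 10.11, 9.91 and 9.98 at 2 months and at 10.67, 10.36 and 10.19 at 8 months, a difference of 0.41 (SE 0.121, limma adjusted p = 0.294). Mdh1, the cytosolic malate dehydrogenase that carries reducing power between cytosol and mitochondria, had one of 0.28 (SE 0.0686, limma adjusted p = 0.221). For both the ages did not overlap, and the other probes of Mdh1 gave 0.11 and −0.023.

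The other pyruvate dehydrogenase components had differences of opposite sign, with Dlat, the acetyltransferase core, at −0.21 (SE 0.0683) and Dld, the dehydrogenase shared with other complexes, at 0.15 (SE 0.0483), among 6 tested. Of 6 other pentose phosphate genes, Pgls, the lactonase, was at −0.19 (SE 0.0792) and Prps2, which makes the activated ribose of nucleotides, at 0.11 (SE 0.0720). Of 12 genes of glycogen and gluconeogenesis, Pygm, the muscle type glycogen phosphorylase, was at −0.23 (SE 0.0662) and G6pc3, a glucose phosphatase, at 0.099 (SE 0.0664). Of 13 other isoenzymes, Pgm2l1 was at 0.19 (SE 0.0966) and Eno3, the muscle enolase, at −0.27 (SE 0.142). Eno3 reached 8.65 in 2 month replicate 2, the sample highest for muscle genes, and lay at 7.96 to 8.16 in all others. The part of muscle RNA in this value was not tested.

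Among 14 other carriers and partners tested, Nxnl2, the paralogue of Nxnl1 made in photoreceptors, was at 7.37, 7.42 and 7.31 at 2 months and at 7.14, 7.15 and 7.15 at 8 months. It passed the filter through its 2 month samples alone, so its direction was set by the filter, and the difference of −0.22 (SE 0.0484) had an adjusted p of 0.165 by limma, and of 0.0181 when the prior variance was allowed to depend on level. Slc2a6, a hexose carrier of the lysosome, was at 8.88, 8.79 and 8.79 and then at 8.98, 9.02 and 8.97, a difference of 0.17 (SE 0.0493). Slc16a8, the lactate carrier of the pigment epithelium, was picked after its values were seen. It was at 9.97, 10.25 and 9.80 at 2 months and at 9.56, 10.02 and 8.76 at 8 months, with overlap. The difference was −0.56 (SE 0.293, limma adjusted p = 0.603), and its lowest sample, 8 month replicate 3, was also the lowest for the pigment epithelium list. That list holds Slc16a8 itself, so the 2 are not independent.

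Of 28 tested regulators and hypoxia targets, 21 had negative and 7 positive differences, where 50.2% of all tested genes lay above 0. The median of the list was −0.023, so many of these differences were small. Hif1a, the oxygen-regulated subunit of the hypoxia-inducible factor, was at 9.24 to 9.28 at 2 months and 9.42 to 9.49 at 8 months, a difference of 0.20 (SE 0.0460, limma adjusted p = 0.207). Ankrd37, a target of that factor, had the opposite sign at −0.28 (SE 0.0750, limma adjusted p = 0.251). Other values from this list, picked after they were seen, were also negative, and none passed: Vegfa, the vascular growth factor, at −0.25 (SE 0.0922), Ndrg1 at −0.24 (SE 0.0987; its dimmer probe gave 0.018) and Txnip, an inhibitor of glucose uptake that is itself induced by glucose, at −0.47 (SE 0.156). Txnip was at 8.53, 9.06 and 8.42 at 2 months and at 8.23, 8.28 and 8.09 at 8 months, without overlap, and was again highest in 2 month replicate 2.

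**Figure D5:**
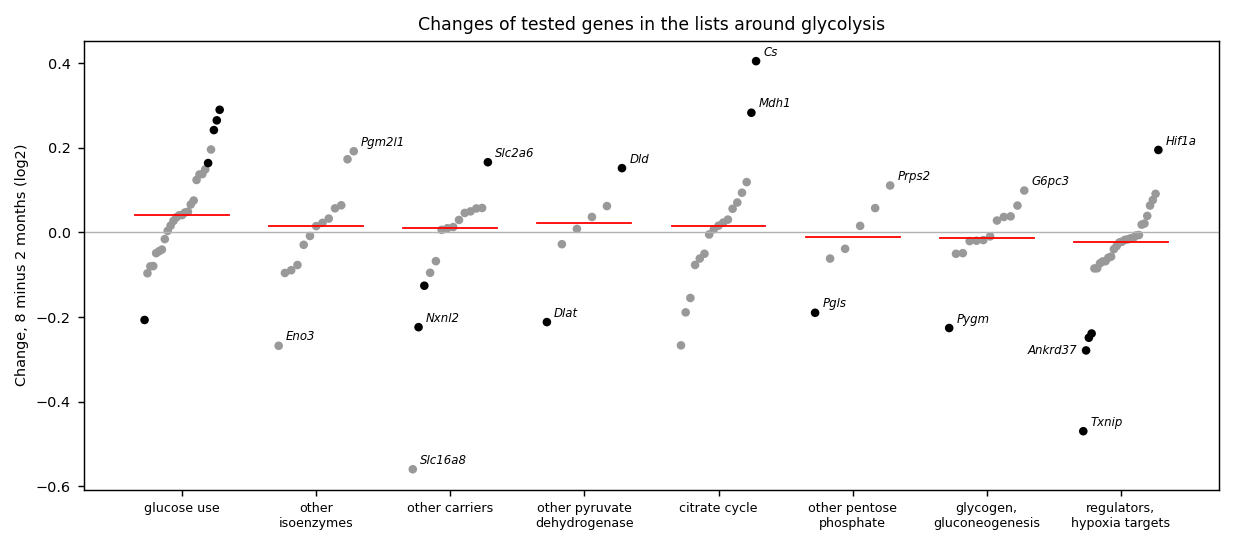
Difference between the ages (8 minus 2 months, log2, vertical axis) for each tested gene of glucose use and of 7 further lists, sorted within a list, with black points for an unadjusted p below 0.05 and red lines for list medians. No point passed the adjusted threshold, and the largest positive value is that of Cs at 0.41.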

How the data were processed

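Groups and replicate numbers were taken from the sample titles. Per the labels' protocols, total RNA was column purified, labelled as biotinylated cRNA and hybridised to Illumina arrays. The range of the deposited values marks a log2 scale, plain or variance-stabilised. Sorted columns differed by at most 0.00307 at any rank, so the authors' normalization was of a quantile type. The software and background correction were not given in the sources used here. Symbols came from GEO's array annotation, and for all 32 genes with a probe they matched RefSeq by gene number. The comparison was fitted on all 12046 genes with limma 3.58.1 in R 4.3.3 (lmFit, eBayes, no covariate, 4 residual and 3.311 prior degrees of freedom), with Benjamini-Hochberg adjustment over all genes. Standard errors and intervals are limma's moderated ones. Signal over background and 3 arrays per age limit the precision. The fit was tested on simulated data. The members and gene lists were chosen with earlier results of these data known. Of the further lists, the 2 genes with the smallest p of each were named, others as stated. There were 18 alternatives, covering normalization, filter, probe choice, variance model, array weights, a replicate block and leaving out each sample.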

Additional observations from a re-analysis of the deposited data

How the results depend on the processing

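None of the 27 genes of glucose use was called under any of the 18 alternatives by limma, and of 481 values of single genes 462 kept their sign. The filters, the variance models and the replicate block left the difference of a gene as it was. Many of these values could therefore not change sign, and the count is no measure of how firm the signs are. Of the 19 values with another sign, 2 lay beyond the spread between replicates, those of Pfkl and Tkt at the dimmest probe, at 0.045 and −0.079. Pgk1 also moved beyond it there, to 0.078. The median of the genes moved by less than that spread, between 0.026 and 0.067 when 1 sample was left out. Their count at an unadjusted p below 0.05 was then 1 to 6. The share of all tested genes is not given for these fits, so that range is no result about the genes of glucose use. Calls over all genes depended on the settings, against 19 higher and 8 lower: without a filter 5 and 2, with the 60th percentile as the filter 17 lower, and with the dimmest kept probe 11 higher. An intensity trend gave 44 higher and 48 lower, including 1 gene of the further lists, Nxnl2. That gene passed the filter through its 2 month samples alone, so its direction was set by the filter and its call is no result. Leaving out 1 sample gave 2 to 12 higher and 0 to 19 lower. The cause was not tested.

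With the replicate number as a block 14 genes were higher and 18 lower, and no gene of glucose use was called. The numbers do not pair the samples by any label, and the descriptions number the 2 month samples otherwise than the titles. Deviations of same-numbered samples correlated at 0.0239, 0.139 and 0.16, and each sample correlated best with its own number. The deviations were taken from the mean of each age, so these matches depend on one another and are no evidence of a pairing.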
